A study of Mus musculus with 81 samples.

Results

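Tcf7, Lef1, Gata3, Bcl11b, Tox, Runx1, Runx3, Tbx21, Eomes and Ets1 are 10 genes that encode transcription factors of the T cell lineage. They were chosen by name, as 10 of the 24391 gene symbols of the count table, and followed through all 5 RNA sequencing experiments on a mouse hybridoma mature T cell line. A hybridoma is made by fusing a T cell with a tumour line, so it grows without limit while keeping T cell genes active. Of the 10 genes, 8 had enough counts to be tested in every experiment. Ets1 passed the filter on low counts in 1 experiment, through 1 group alone, so it is described by its counts and kept out of the tallies. Eomes passed in none.

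The experiments perturbed Notch signalling and RBPJ, its DNA-binding factor, in different ways. In the depletion experiment, lines 2-12 and 2-14, both depleted of RBPJ with CRISPR/Cas9, were compared with their control line, with 2 libraries per line. Whether each line is 1 clone is not given in the sources used here. In the NICD1-ER experiment, all cells carried the Notch1 intracellular domain fused to an estrogen receptor domain and received either ethanol for 24 h or 1 µM 4-hydroxytamoxifen (4-OHT) for 4, 8 or 24 h. Ethanol was given for 24 h only, so the earlier times have no ethanol group of their own. In the KYOT2 experiment, cells infected with GFP-KYOT2 wild type (WT) or with GFP-KYOT2 WWAA, a mutant that fails to interact with RBPJ per the labels, were compared with cells infected with GFP, with 3 libraries per group. KYOT2 is a product of Fhl1 that binds RBPJ. In the GSI experiment, the gamma-secretase inhibitor DAPT (20 µg/ml for 24 h) was compared with DMSO, with 2 libraries each. In the BioNICD1 experiment, RBPJ-depleted cells and their control cells each carried either BioNICD1 WT, a form of NICD1, or the Biocontrol vector, with 3 libraries in each of the 4 groups.

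Notch receptors are cut by gamma-secretase after they bind a ligand, and the freed intracellular domain (NICD) enters the nucleus and joins RBPJ on DNA. RBPJ without NICD recruits corepressors instead. In the thymus, Notch signalling commits progenitors to the T cell lineage, and Tcf7, Gata3 and Bcl11b are among the factors that carry out this commitment. Tcf7 and Lef1 encode HMG-box factors that can act with beta-catenin. Gata3 encodes a zinc finger factor needed in early T cells and in type 2 helper cells, and Bcl11b a zinc finger factor that locks in T cell identity. Runx1 and Runx3 encode RUNX factors that act with CBFβ, Runx3 being known for the CD8 lineage. Tbx21 (T-bet) and Eomes encode T-box factors of type 1 helper and cytotoxic cells, Tox a factor of CD4 lineage choice and of exhausted T cells, and Ets1 a founding member of the ETS family.

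RefSeq promoter sequences (GRCm38.p6) were matched by symbol for 8 of the 10 genes, in 14 promoters; Tox and Ets1 had no entry. The 250 bases before each start were searched on both strands for TGGGAA, the core of the RBPJ motif. It occurred in 2 of the 14 promoters, 1 of Runx3 and that of Tbx21, and in 21.6% of the 32851 promoters of all genes. The longer form GTGGGAA, which overlaps the core, occurred in none of the 14 and in 5.42% of all promoters. With the 50 bases after the start included, Lef1 also held both forms, and the shares of all promoters were 25.6% for the core and 6.38% for the longer form. The 2 promoters with the core are shown, a choice made with the NICD1-ER values of these genes known. Any part of the core in changes of Runx3 or Tbx21 was not tested. The Runx3 promoter lies on the plus strand at chr4:135120395-135120644 and the Tbx21 promoter on the minus strand at chr11:97115332-97115581, each read 5′ to 3′ with the core in capitals.
Runx3: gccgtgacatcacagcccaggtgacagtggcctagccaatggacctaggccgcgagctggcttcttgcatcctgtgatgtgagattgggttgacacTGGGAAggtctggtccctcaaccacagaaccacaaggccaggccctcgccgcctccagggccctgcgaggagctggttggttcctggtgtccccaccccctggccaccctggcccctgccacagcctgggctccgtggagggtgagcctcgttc
Tbx21: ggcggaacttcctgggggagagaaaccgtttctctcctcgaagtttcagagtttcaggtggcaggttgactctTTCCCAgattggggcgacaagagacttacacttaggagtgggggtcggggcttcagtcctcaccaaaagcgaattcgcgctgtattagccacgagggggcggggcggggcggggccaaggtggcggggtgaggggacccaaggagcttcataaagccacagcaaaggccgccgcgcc
The core lies on the gene's own strand in Runx3, from base -154 to base -149 before the start, and on the opposite strand in Tbx21, from base -177 to base -172. For other families, CTTTGA (TCF/LEF) occurred in promoters of Lef1 and Bcl11b against 13.8% of all promoters, TGTGGT (RUNX) in 1 promoter of Runx3 against 14% of all, and AGATAA, a motif of Gata factors, in none of the 14 against 9.99% of all. With the 50 bases after the start included, TGTGGT also occurred in Runx1 (16.8% of all) and AGATAA in Lef1 (11.2% of all), and CTTTGA stayed with Lef1 and Bcl11b (16% of all). A match describes letters only.

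Library totals ran from 2377028 to 14244209 counts, and 3 counts, the floor used for detection, corresponded to 0.211 to 1.26 CPM (counts scaled to library size, here with TMM factors). Of 10 fixed T cell markers, 9 or 10 exceeded 3 counts in every library of each group, and their summed level was at least 706 CPM. None of 5 B cell markers did so in any group. Rbpj fell to 44.3 ± 11.6 CPM in lines 2-12 and 2-14 together (SD, n = 4), against 157.4 ± 34.4 CPM in the control line (n = 2). In the BioNICD1 experiment it fell to 19.3 ± 0.607 CPM in depleted cells, against 90.9 ± 2.86 CPM in control cells, both with Biocontrol (n = 3 each). Fhl1 averaged 1093 CPM with KYOT2 WT, 686 CPM with WWAA and 0.147 CPM with GFP. In every group of the KYOT2 experiment, replicate 3 lay furthest from the other 2 libraries. With GFP it had a chi-square per gene of 26.2 and 13.8, against 6.64 between the other 2. With WT it had 24.2 and 14.4, against 4.01, and with WWAA 14.1 and 13.3, against 1.94. In the BioNICD1 experiment 2 libraries stood apart from their groups. Depleted BioNICD1 replicate 1 had a chi-square per gene of 52.2 and 52.6 against the other 2 libraries of its group, which had 9.56 between them. Depleted Biocontrol replicate 3 had 23.1 and 41.8, against 5.07 between the other 2. Results that rest on these libraries are given with and without them below. Nothing in the labels says that replicates were separate cultures, so p-values measure only the spread between these samples, which may be technical.

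RBPJ depletion in lines 2-12 and 2-14 asked what the loss of the factor does without added NICD. None of the 8 genes tested passed the test, an edgeR quasi-likelihood F-test with Benjamini-Hochberg adjustment over all genes and a threshold of 0.05, while 9.89% of all genes did. The nearest was Runx1, with 85.7 and 89.0 CPM in line 2-12 and 67.4 and 58.2 CPM in line 2-14, against 44.9 and 59.5 CPM in the control line. Line 2-12 lay above both control libraries, and line 2-14 overlapped them. The log2 fold change over both lines was 0.49 ± 0.153 (SE, adjusted p = 0.0929) and that of line 2-12 alone 0.73 ± 0.173 (adjusted p = 0.0563). In bulk RNA, fewer cells of a type and less RNA per cell cannot be told apart, here or below.

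Lef1 had 45.9 and 37.6 CPM in line 2-12 and 49.0 and 37.1 CPM in line 2-14, against 20.6 and 33.7 CPM in the control line. All 4 depleted libraries were above both control libraries, at a log2 fold change of 0.60 ± 0.236 (adjusted p = 0.151). This value was 0.325 without control replicate 1 and 1.03 without control replicate 2, and that of Runx1 was 0.314 and 0.718. Tcf7 likewise did not overlap, with 230 to 284 CPM in the depleted libraries and 215.9 and 215.5 CPM in the control, and Runx3 had 73.6 to 93.0 CPM against 53.9 and 70.5 CPM. Bcl11b had 217 to 242 CPM in the depleted libraries, against 247 and 304 CPM in the control. The share of all genes whose libraries separate in this way was not counted, here or below. Tox (84.7 to 101.5 CPM in the lines, 84.4 and 99.8 CPM in the control) overlapped. Tbx21 had 13.6 and 16.7 CPM in line 2-12 and 18.4 and 22.9 CPM in line 2-14, against 11.7 and 15.9 CPM in the control, so line 2-14 alone lay above both control libraries. Gata3 had 141 and 123 CPM in line 2-12 and 152 and 136.9 CPM in line 2-14, against 101 and 135.6 CPM in the control, and again line 2-14 alone did not overlap. The median log2 fold change of the 8 genes was 0.29, against -0.0045 over all genes. Control replicate 1 was the shallowest library of the series, at 2377028 counts. Leaving out control replicate 2 brought Runx1 past the threshold (adjusted p = 0.0369 over both lines), as did keeping all genes without a low-count filter, where Runx1 (adjusted p = 0.036) and Lef1 (adjusted p = 0.0211) passed. With the replicate number as a block, Runx1 (adjusted p = 0.0191) and Tcf7 (adjusted p = 0.0445) passed over both lines, 2 of the 8 genes, while 36.8% of all genes did.

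**Figure D1:**
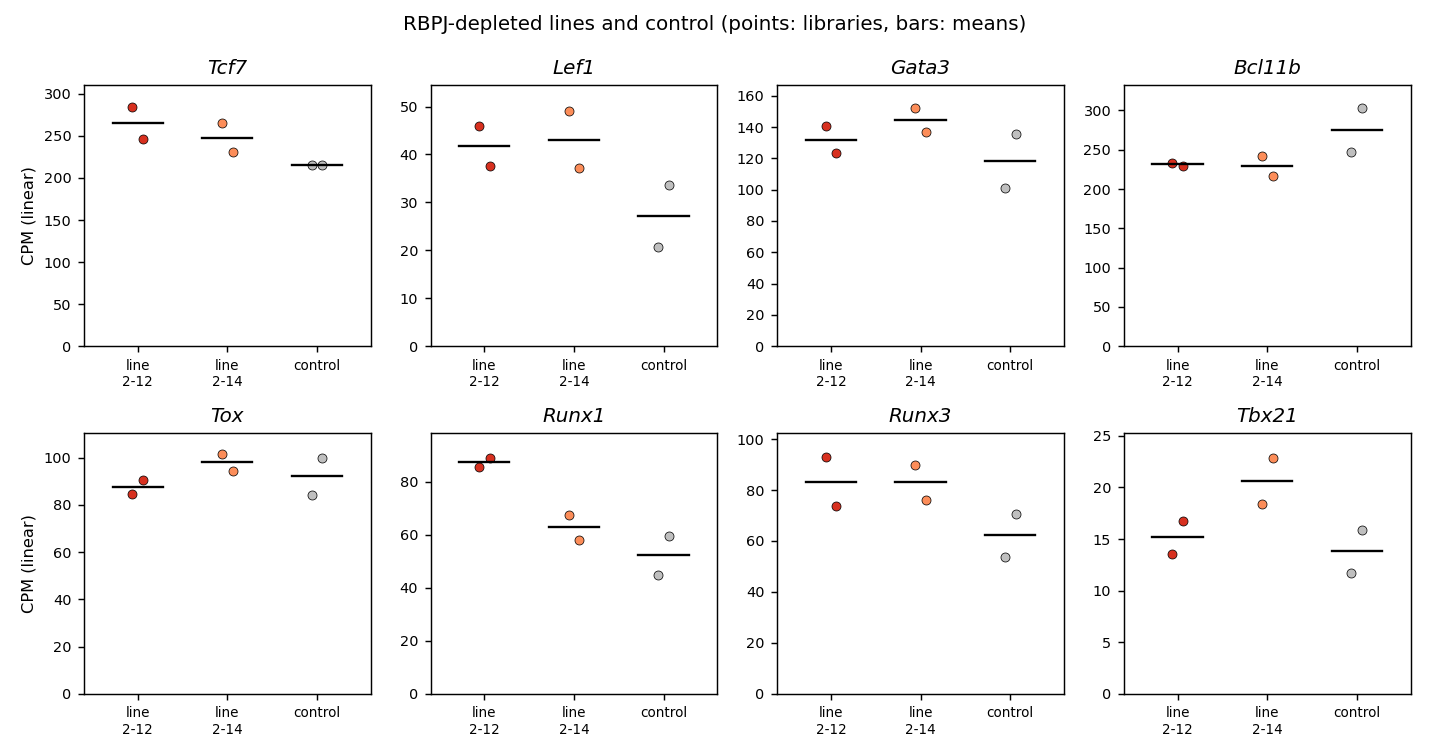
CPM (y axis, linear, from 0) of 8 genes in line 2-12, line 2-14 and the control line (x axis), with 2 libraries per line as points and the mean as a bar. Lef1, Tcf7 and Runx3 sit higher and Bcl11b lower in all 4 depleted libraries, with control libraries as far apart as 20.6 and 33.7 CPM for Lef1. None of the 8 genes passed the main test.

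Taken alone, neither line had a gene of the 8 past the threshold, against 6.96% of all genes for line 2-12 and 5.05% for line 2-14, and none differed between the lines, against 0.484% of all genes. With the replicate block, Tcf7 (adjusted p = 0.04) and Runx1 (adjusted p = 0.00578) passed for line 2-12 and Tbx21 (adjusted p = 0.0433) for line 2-14, while 31.7% and 28% of all genes passed for these lines. Among 20 tested genes of a list of other T cell factors, 2 rose and 18 did not pass, while 9.89% of all genes passed over both lines. Satb1, a chromatin organizer, averaged 29.2 CPM in both lines and 6.29 CPM in the control (log2 fold change 2.06, adjusted p = 0.00496), and Klf2, which keeps T cells quiescent, 43.5 and 12.5 CPM (1.69, adjusted p = 0.00859). Of 13 tested helper and effector factors, Irf4 and Irf8 rose, Stat4 fell to 79.5 CPM in the lines, against 148.7 CPM in the control, and 10 did not pass. Irf8 averaged 2.51 CPM in the lines and 0 CPM in the control. The lines alone carried it past the low-count filter, so its rise is a description. Of 9 tested genes that textbooks place downstream of the 10 factors, 4 rose (Cd4, Il2ra, Il2rb and Ccl5) and 5 did not pass. Cd4, the coreceptor gene, averaged 61.6 CPM in line 2-12 and 159.7 CPM in line 2-14, against 1.58 CPM in the control, and differed between the lines (adjusted p = 0.0261). Il2rb, a receptor chain for interleukins 2 and 15, averaged 10.7 and 62.9 CPM in these lines, against 1.36 CPM in the control, and also differed between them (adjusted p = 0.0172). Il2ra, the interleukin 2 receptor alpha gene, averaged 10.5 CPM in line 2-12, 1.10 CPM in line 2-14 and 0.103 CPM in the control, and did not pass for line 2-14 alone (adjusted p = 0.183). Its control level lay under the floor of 3 counts, so its rise too is a description. The median log2 fold change over both lines was 0.02 for the T cell factors, -0.19 for the helper and effector factors and 0.93 for the downstream genes. With the replicate block, 4 T cell factors rose and 1 fell, 3 helper and effector factors rose and 5 fell, and 4 downstream genes rose and 1 fell. These were 25%, 61.5% and 55.6% of the genes tested per list, against 36.8% of all genes. Summed myeloid markers were at 21.1 to 31.3 CPM in the lines and 46.7 to 58.5 CPM in the control, with at most 2 of 6 above the floor in every library of a group. Summed NK markers were at 11 to 22.3 CPM in the lines and 2.07 to 2.24 CPM in the control. Of these 4 markers, Fcgr3 alone was above the floor in every library, and Ncr1 and Klrd1 were at 0 counts in all 3 lines. Their part in these results was not tested.

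The NICD1-ER time course followed the genes after 4, 8 and 24 h of 4-OHT. No group used here received 4-OHT without the fusion, so NICD1 and 4-OHT itself cannot be told apart. Of the 8 genes, 4 rose and 1 fell at 4 h, 5 rose and 2 fell at 8 h, and 2 rose and 2 fell at 24 h, each against ethanol. Over all genes, 6.25% passed at 4 h (3.16% up, 3.09% down), 10.4% at 8 h (5.06% up, 5.31% down) and 10.8% at 24 h (6.59% up, 4.22% down). Each group held 2 samples. At both 4 h and 8 h the spread between replicates 1 and 2 was under the sampling noise, so the pair was summed and counted as 1 sample. Gata3 passed at no time.

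Lef1 fell throughout. It had 76.5 and 77.6 CPM with ethanol, 58.3 and 60.9 CPM after 4 h of 4-OHT, 53.9 and 51.4 CPM after 8 h and 40.7 and 36.0 CPM after 24 h. No sample of 1 time overlapped a sample of another. The log2 fold change against ethanol was -0.38 ± 0.0682 at 4 h (adjusted p = 0.00231), -0.54 ± 0.0696 at 8 h (adjusted p = 6.02e-05) and -1.001 ± 0.0814 at 24 h (adjusted p = 1.61e-07). Between 24 h and 4 h of 4-OHT it differed by -0.62 ± 0.0792 (adjusted p = 4.64e-05).

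Tbx21 moved the other way. Its samples had 15.5 and 17.0 CPM with ethanol, 20.7 and 19.7 CPM at 4 h, 24.0 and 22.7 CPM at 8 h and 29.8 and 31.4 CPM at 24 h, again with no overlap between times. The difference from ethanol at 4 h did not pass (log2 fold change 0.32 ± 0.126, adjusted p = 0.175). Tbx21 rose by 0.53 ± 0.123 at 8 h (adjusted p = 0.0103) and by 0.90 ± 0.13 at 24 h (adjusted p = 8.38e-05), and was higher at 24 h than at 4 h by 0.59 ± 0.108 (adjusted p = 0.0014). The call at 8 h was lost without ethanol replicate 2 or without the summed 8 h sample, with adjusted p up to 0.132.

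The 2 RUNX genes shared the early rise and then parted. Runx1 had 93.1 and 89.9 CPM with ethanol, 126 and 122 CPM at 4 h, 108 and 116 CPM at 8 h and 98.8 and 98.4 CPM at 24 h. It was highest at 4 h (log2 fold change 0.45 ± 0.0566, adjusted p = 8.2e-05), still higher at 8 h (0.28 ± 0.0576, adjusted p = 0.00385), and at 24 h did not pass against ethanol (adjusted p = 0.357) and was lower than at 4 h by -0.34 ± 0.055 (adjusted p = 0.000464). Without ethanol replicate 3 the 8 h value missed the threshold (adjusted p = 0.0518). Runx3 had 106 and 113 CPM with ethanol, 143 and 139.9 CPM at 4 h, 137 and 144 CPM at 8 h and 149 and 151 CPM at 24 h. Its log2 fold change was 0.37 ± 0.0534 at 4 h (adjusted p = 0.000288), 0.36 ± 0.0535 at 8 h (adjusted p = 0.000277) and 0.46 ± 0.056 at 24 h (adjusted p = 2.14e-05).

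**Figure D2:**
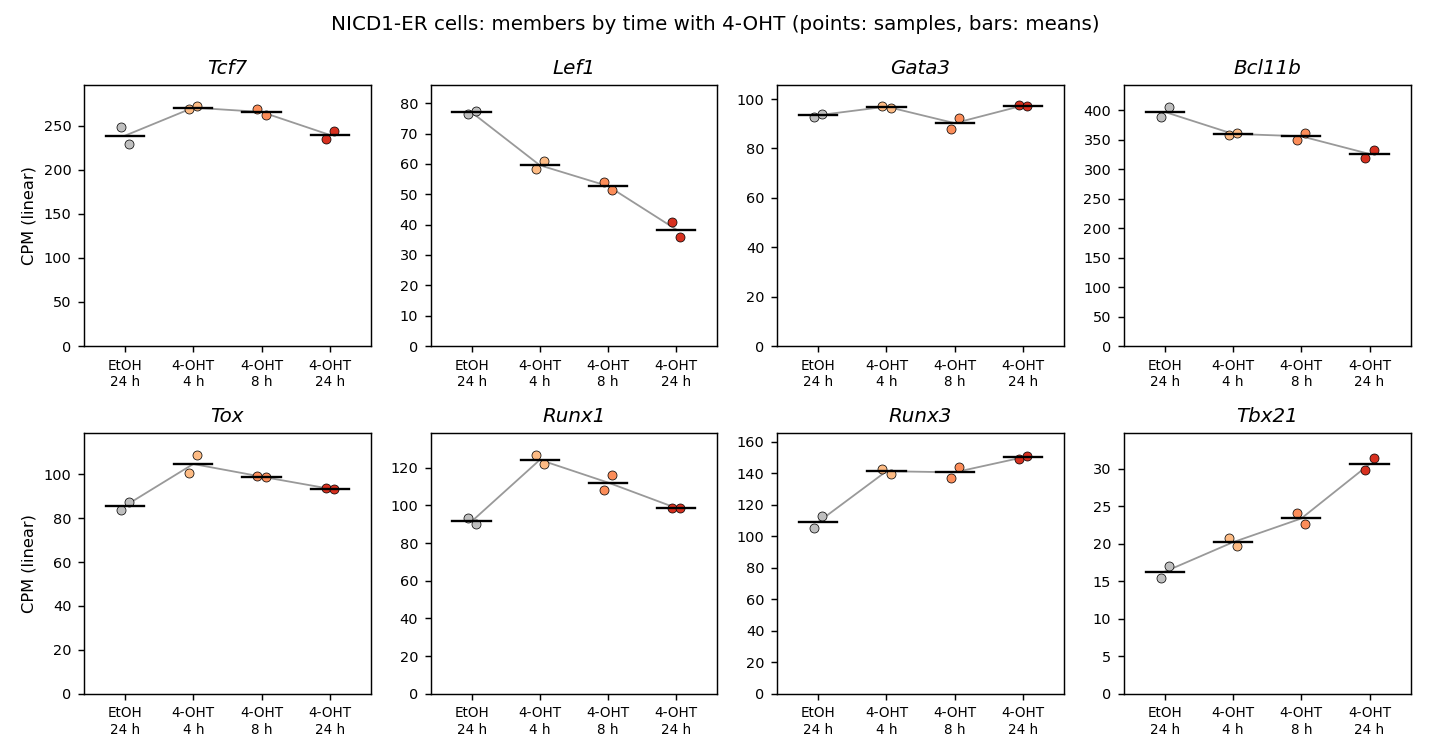
CPM (y axis, linear, from 0) of 8 genes in NICD1-ER cells with ethanol for 24 h or 4-OHT for 4, 8 or 24 h (x axis), with 2 samples per group as points, means as bars and a line joining the means. Lef1 steps down to 40.7 and 36.0 CPM at 24 h, Tbx21 steps up to 29.8 and 31.4 CPM, and Runx1 peaks at 4 h.

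Smaller changes were seen in Tcf7, Tox and Bcl11b. Tcf7 had 248 and 229 CPM with ethanol, 269 and 272 CPM at 4 h, 269 and 263 CPM at 8 h and 235 and 244 CPM at 24 h. It rose at 4 h (log2 fold change 0.18 ± 0.0482, adjusted p = 0.0334) and at 8 h (0.16 ± 0.0481, adjusted p = 0.0457), and its samples at 24 h overlapped ethanol. Both calls were marginal: at 4 h the call was lost in 7 of 8 fits that left out 1 sample, all but the one without ethanol replicate 2, with adjusted p from 0.0217 to 0.267. At 8 h it was lost in 5 of 8 such fits, without ethanol replicate 3 or any sample of 8 h or 24 h, with adjusted p from 0.025 to 0.331. Tox had 83.9 and 87.4 CPM with ethanol, 100.5 and 109 CPM at 4 h, 99.2 and 98.6 CPM at 8 h and 93.7 and 93.2 CPM at 24 h. It rose at 4 h (0.27 ± 0.0588, adjusted p = 0.00954; 0.0716 without ethanol replicate 2) and at 8 h (0.21 ± 0.0592, adjusted p = 0.0339). At 8 h the Tox call was lost in 6 of 8 fits, without any sample of ethanol, 8 h or 24 h, with adjusted p from 0.0232 to 0.208.

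Bcl11b had 389 and 406 CPM with ethanol, 359 and 362 CPM at 4 h, 350.0 and 362 CPM at 8 h and 319.8 and 332 CPM at 24 h, so every 4-OHT sample was below both ethanol samples. It missed the threshold at 4 h (log2 fold change -0.14 ± 0.0449, adjusted p = 0.0756) and fell at 8 h (-0.16 ± 0.0449, adjusted p = 0.03) and at 24 h (-0.29 ± 0.0465, adjusted p = 0.000401). The 8 h call was lost without ethanol replicate 3 or either 8 h sample, with adjusted p up to 0.253. Gata3 lay between 88.0 and 97.4 CPM in all 8 samples. Ets1 held 1 to 9 counts per sample and Eomes 1 count in 1 sample of 24 h, too few to be tested.

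Between 24 h and 4 h of 4-OHT, 5 of 8 genes differed, against 13.4% of all genes. Tbx21 was higher at 24 h, as were 8% of all genes, and Lef1, Runx1, Tcf7 and Bcl11b were lower, as were 5.41%. Of these, Tcf7 (log2 fold change -0.17 ± 0.0478, adjusted p = 0.0224) was lost without either 24 h sample or the summed 4 h sample (adjusted p up to 0.24). Bcl11b (-0.14 ± 0.0455, adjusted p = 0.0466) was lost without any one sample of 4 h, 8 h or 24 h (adjusted p up to 0.336). DESeq2 called fewer of the 8 genes: 2 at 4 h (Runx1, Runx3), 2 at 8 h (Lef1, Runx3), 4 at 24 h and 2 between 24 h and 4 h (Lef1, Runx1). Over all genes it also called fewer, at 212, 409, 588 and 432 in this order, against 738, 1225, 1276 and 1584 in the main test. The 4 calls at 24 h against ethanol (Lef1, Bcl11b, Runx3 and Tbx21) were kept in every alternative run.

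At 24 h, 2 of 20 other T cell factors rose and 2 fell against ethanol, while 6.59% of all genes rose and 4.22% fell. Tox2, a relative of Tox, averaged 21.8 CPM with 4-OHT and 37.2 CPM with ethanol (log2 fold change -0.78, adjusted p = 8.38e-05), and Runx2, the remaining RUNX gene, 111.5 and 70.6 CPM (0.65, adjusted p = 0.000197). Of 13 helper and effector factors 5 rose and 3 fell, with Maf, a factor of interleukin-producing helper cells, at 42.2 CPM with 4-OHT and 76.8 CPM with ethanol (-0.87, adjusted p = 2.1e-06). Of 13 downstream genes 7 rose and 2 fell. For the 3 lists in this order the median log2 fold change was 0.01, 0.16 and 0.33, against -0.0058 over all genes. Prf1, the perforin gene, held 158 counts (15.7 CPM) with 4-OHT and 0 counts with ethanol. Ccr7, a lymph node homing receptor, averaged 70.7 CPM with 4-OHT and 20.1 CPM with ethanol (1.83, adjusted p = 3.31e-08), and Cxcr3, a chemokine receptor known as a T-bet target, 2.89 and 10.1 CPM (-1.79, adjusted p = 0.000145). Ifng, the main type 1 cytokine gene, averaged 3.57 and 0.845 CPM (2.07, adjusted p = 0.00874). Of 5 fibroblast markers, Pdgfrb alone was above the floor in every sample at 24 h, and the summed level was 8.43 to 10.4 CPM at 24 h and 0.192 to 0.231 CPM with ethanol, with Col3a1 and Fn1 at 0 counts at 24 h. Spi1, a myeloid marker, was at 7.92 to 8.43 CPM at 24 h and 0.231 to 0.575 CPM with ethanol, with the 6 myeloid markers summing to 48.7 to 49.0 CPM and 39.3 to 42.5 CPM. Their part in these results was not tested.

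KYOT2 asked whether a competitor for RBPJ changes these genes, with the WWAA mutant as the form that does not interact. With WT against GFP, 1 of 8 genes passed, upward, against 0.888% of all genes in either direction and 0.807% upward. This was Lef1, with 15.6, 18.1 and 20.1 CPM with WT, 14.2, 15.2 and 14.5 CPM with WWAA and 10.3, 13.3 and 13.0 CPM with GFP. All WT libraries were above all GFP libraries, at a log2 fold change of 0.55 ± 0.116 (adjusted p = 0.0403). The WWAA libraries lay between, and WWAA against GFP did not pass (0.25 ± 0.12, adjusted p = 0.611). Nor did WT against WWAA (0.30 ± 0.113, adjusted p = 0.237), so a difference of Lef1 between the 2 forms was not shown. The Lef1 call was lost in 7 of 9 fits that left out 1 library, all but those without WT replicate 1 or WWAA replicate 3, with adjusted p from 0.0209 to 0.167.

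No gene of the 8 passed with WWAA against GFP, where 0.0897% of all genes did, or with WT against WWAA, where 1.87% did. Tbx21 had 4.24, 4.81 and 4.70 CPM with WT, 4.26, 4.85 and 3.27 CPM with WWAA and 4.16, 2.92 and 2.35 CPM with GFP, on 30 to 69 counts per library. Runx3 had 44.6, 39.5 and 39.8 CPM with WT and 37.6, 37.1 and 27.01 CPM with WWAA, without overlap. The lowest of these, at 27.01 CPM, was replicate 3, which lay furthest from its group over all genes. The Runx3 difference did not pass here (adjusted p = 0.27). It passed when the low-count filter was left out (adjusted p = 0.0273) and with the replicate number as a block (adjusted p = 0.0326). Over all genes 395 and 567 passed in these fits, against 208 in the main fit. Gata3 had 60.9 to 68.3 CPM with WT and 58.0 to 60.5 CPM with GFP. Neither Gata3 nor Tbx21 overlapped between WT and GFP, and neither passed (adjusted p = 0.398 for Gata3 and 0.256 for Tbx21). Tcf7 (111.6 to 118 CPM with WT), Bcl11b (125 to 133 CPM), Tox (40.2 to 46.2 CPM) and Runx1 (25.0 to 33.9 CPM) overlapped GFP. With WT against GFP 0.888% of all genes passed. The 3 lists had medians of 0.09, 0.15 and 0.13 on the log2 scale there, against -0.0018 over all genes. Among them, Id2, an inhibitor of E proteins, rose to 45.9 CPM with WT, against 30.8 CPM with GFP (0.58, adjusted p = 0.000998), as 1 of 19 T cell factors. Zeb2, a repressor known to act with T-bet, was 1 of 12 helper factors to pass, and Gzmb, the granzyme B gene, 1 of 6 downstream genes, at 6.76 CPM with WT and 0.735 CPM with GFP (3.14, adjusted p = 7.13e-05).

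**Figure D3:**
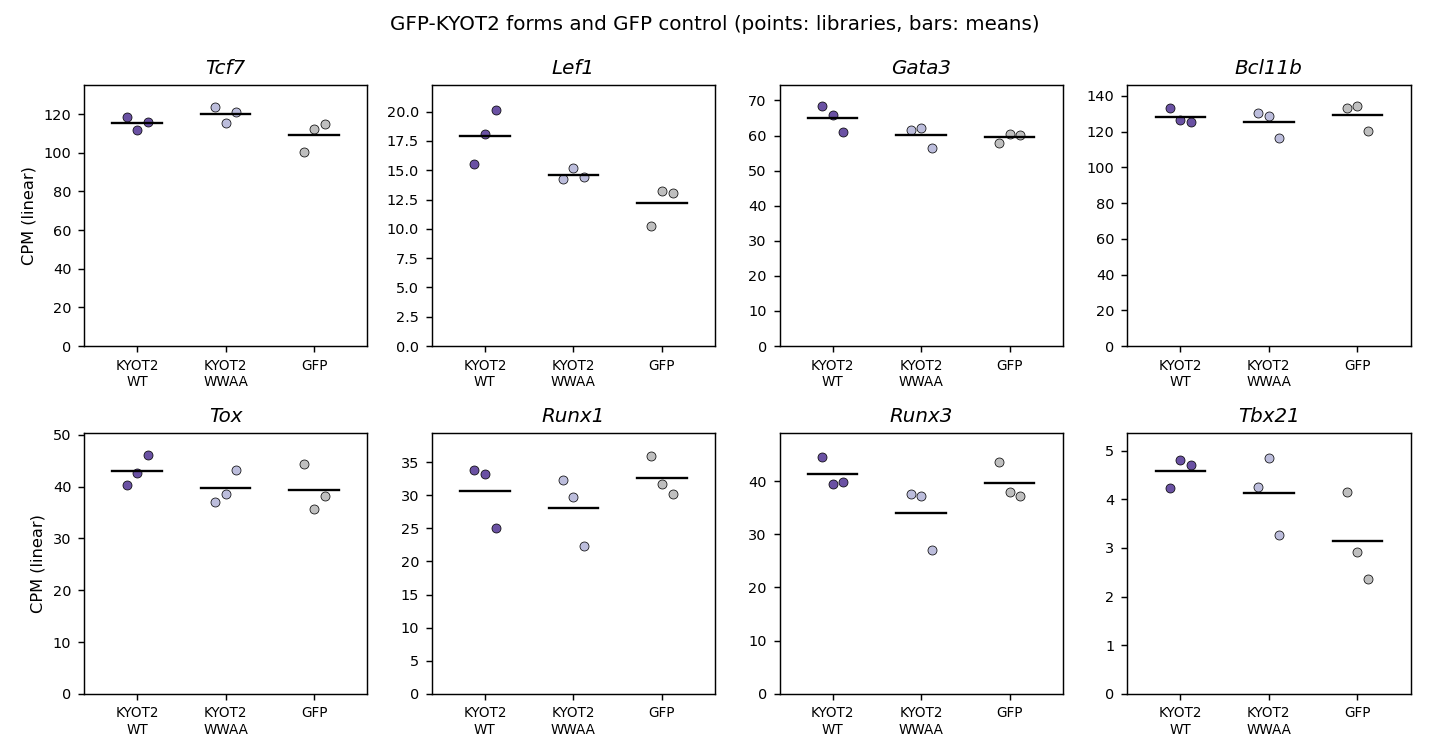
CPM (y axis, linear, from 0) of 8 genes with GFP-KYOT2 WT, GFP-KYOT2 WWAA and GFP (x axis), with 3 libraries per group as points and means as bars. Lef1 runs from 15.6 to 20.1 CPM with WT and from 10.3 to 13.3 CPM with GFP, and most other genes overlap between groups.

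DAPT, which blocks release of NICD, was used to ask what endogenous Notch cleavage contributes. Gata3 fell and was the only one of the 8 genes to pass, while 20.7% of all genes passed and 11.6% fell. It had 108.3 and 108.3 CPM with DAPT, against 129 and 132 CPM with DMSO, and fell by 0.27 ± 0.0507 on the log2 scale (adjusted p = 0.000142). The call held without any one library, with adjusted p up to 0.00676, and was lost with DESeq2 (adjusted p = 0.132). The DAPT libraries differed by less than sampling noise (chi-square per gene 0.766) and may be 1 library, so that spread may be understated. Tox had 93.0 and 90.5 CPM with DAPT and 99.0 and 101 CPM with DMSO, and Runx1 82.8 and 92.0 CPM and 92.6 and 92.3 CPM, both without overlap and neither past the threshold (adjusted p = 0.15 and 0.439). Tcf7 (186 and 198 CPM with DAPT), Lef1 (71.9 and 76.6 CPM), Bcl11b (359 and 366 CPM), Runx3 (101.5 and 105.5 CPM) and Tbx21 (17.2 and 20.4 CPM) overlapped DMSO. Satb1 rose to 16.4 CPM with DAPT, against 7.82 CPM with DMSO (1.05, adjusted p = 1.64e-05), as 1 of 20 T cell factors, with 1 falling. Of 13 helper and effector factors 2 rose and 1 fell, and of 9 downstream genes 3 rose and 1 fell, with medians of 0.04, 0.03 and 0.16 on the log2 scale for the 3 lists in this order, against 0.0018 over all genes. Cd4 averaged 106 CPM with DAPT and 55.0 CPM with DMSO (0.94, adjusted p = 1.44e-12), and Prdm1, the gene of Blimp-1, 70.5 and 88.1 CPM (-0.32, adjusted p = 0.000163). Summed myeloid markers were at 85.1 to 89.2 CPM with DAPT and 57.3 to 63.6 CPM with DMSO, with Lyz2 and Cd68 of the 6 above the floor in every library. Their part in these results was not tested.

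BioNICD1 in control cells raised most of the genes. Of the 8 genes, 6 rose and none fell, against 18.7% of all genes rising and 32.9% passing in either direction. The median log2 fold change of the 8 was 0.46, against 0.0128 over all genes. Tcf7 had 829, 776 and 797 CPM with BioNICD1, against 482, 462 and 516 CPM with Biocontrol (log2 fold change 0.72 ± 0.101, adjusted p = 0.000161). Bcl11b had 321, 331 and 319 CPM with BioNICD1, against 214, 209.8 and 224 CPM with Biocontrol (0.58 ± 0.082, adjusted p = 0.000157). These factors of lineage commitment showed no overlap between the groups, and neither did Gata3. It had 56.3, 60.5 and 59.0 CPM with BioNICD1, against 44.5, 44.3 and 41.9 CPM with Biocontrol (0.43 ± 0.106, adjusted p = 0.00837).

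Ets1, kept out of these tallies, held 106, 131 and 130 counts with BioNICD1 (11.1, 12.5 and 12.6 CPM), against 4, 3 and 2 counts with Biocontrol (0.507, 0.345 and 0.247 CPM). All Biocontrol libraries were close to the floor of 3 counts, and the libraries of control cells with BioNICD1 alone carried the gene past the low-count filter, so the difference is a description. The ratio of summed counts, scaled to library size, was 34.8, with an exact interval at 95% of 18.2 to 76.8 that covers counting error only. Tbx21 had 11.2, 12.5 and 14.6 CPM with BioNICD1, against 4.94, 5.29 and 3.83 CPM with Biocontrol (1.44 ± 0.274, adjusted p = 0.00153), on 31 to 151 counts per library.

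Lef1 rose as well, with 83.6, 77.8 and 77.5 CPM with BioNICD1, against 60.4, 52.3 and 57.8 CPM with Biocontrol (0.49 ± 0.0983, adjusted p = 0.00232). In the NICD1-ER cells Lef1 fell at every time, and Bcl11b fell at 8 h and 24 h. The 2 systems differ in construct and in how NICD1 was delivered, so these are values side by side, and their difference was not tested. Tox had 106, 97.1 and 101 CPM with BioNICD1, against 82.1, 78.8 and 82.6 CPM with Biocontrol, and passed narrowly (0.32 ± 0.109, adjusted p = 0.0398). The Tox call was lost in 7 of 12 fits that left out 1 library, that is without any BioNICD1 or Biocontrol library of control cells or without depleted Biocontrol replicate 1, with adjusted p from 0.019 to 0.133. DESeq2 did not call it either (adjusted p = 0.0557). Runx1 had 44.4, 42.1 and 44.2 CPM with BioNICD1 and 44.7, 42.4 and 37.7 CPM with Biocontrol, and Runx3 377, 315 and 317 CPM and 327, 312 and 307 CPM. Both RUNX genes overlapped and did not pass (adjusted p = 0.704 and 0.744).

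**Figure D4:**
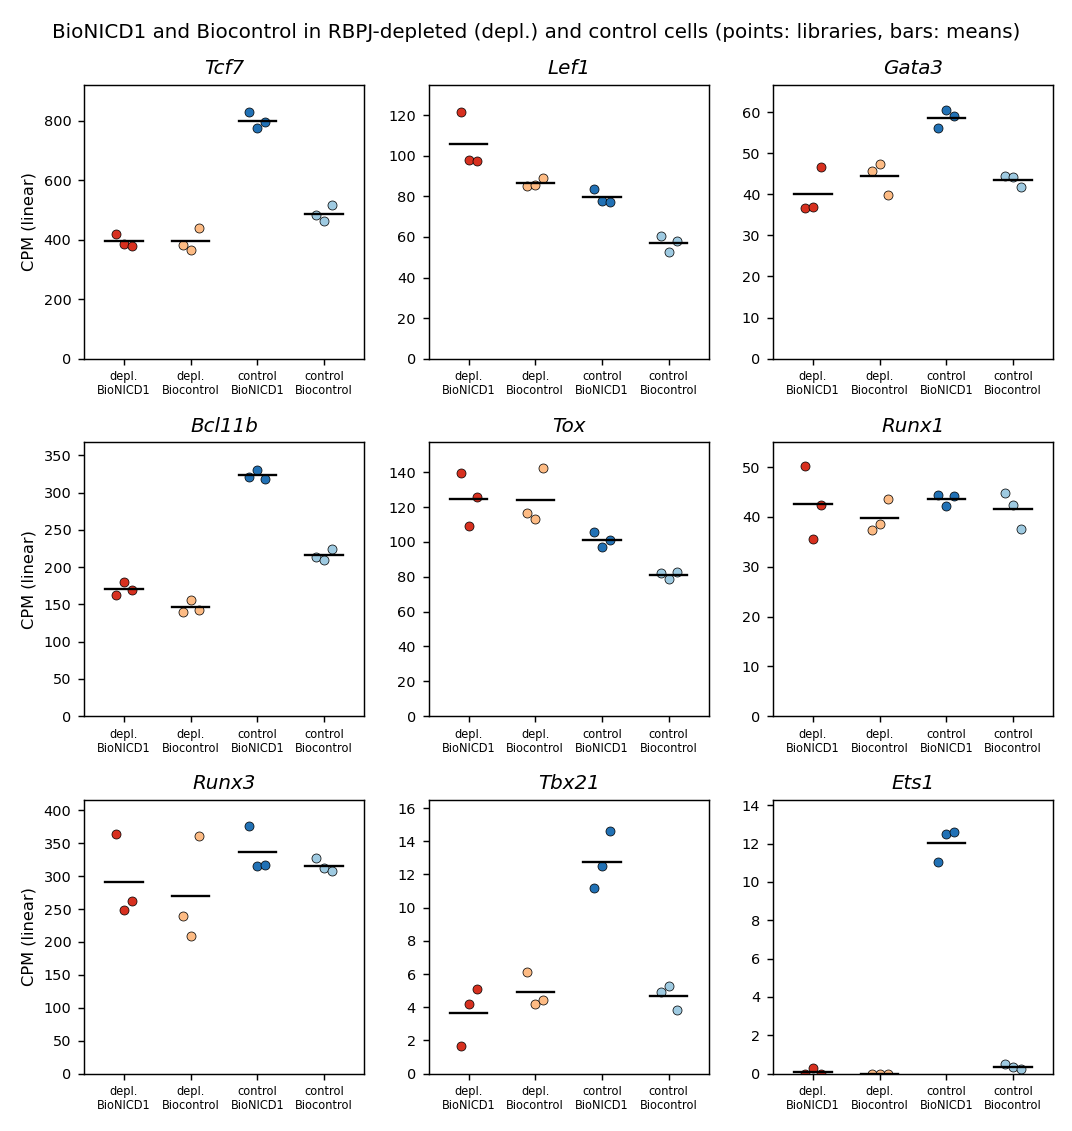
CPM (y axis, linear, from 0) of 9 genes in RBPJ-depleted and control cells carrying BioNICD1 or Biocontrol (x axis), with 3 libraries per group as points and means as bars. In Tcf7, Gata3, Bcl11b, Tbx21 and Ets1 the 3 control libraries with BioNICD1 stand above all other libraries, and in Lef1 all 6 depleted libraries stand above the control libraries.

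Other factors rose in the same comparison, where 18.7% of all genes rose and 32.9% passed in either direction. Of 19 tested T cell factors 8 rose and 1 fell, led by Id2 at 129.7 CPM with BioNICD1 and 29.4 CPM with Biocontrol (log2 fold change 2.14, adjusted p = 4.29e-07) and Tox2 at 181 and 90.6 CPM (1.00, adjusted p = 8.08e-06). Of 13 helper and effector factors 8 rose and 1 fell. Among those that rose, Irf4, a factor of effector differentiation, averaged 10.2 CPM with BioNICD1 and 2.67 CPM with Biocontrol (1.94, adjusted p = 0.000236), and Bcl6, the factor of follicular helper cells, 14.45 and 4.325 CPM (1.74, adjusted p = 2.41e-05). The one that fell was Foxp3 of regulatory T cells, named here after its values were seen, at 11 CPM with BioNICD1 and 20.6 CPM with Biocontrol (-0.90, adjusted p = 0.00168). Of 12 downstream genes 7 rose and none fell. Medians on the log2 scale were 0.18, 0.71 and 1.55 for the 3 lists in this order, against 0.0128 over all genes. Gzmb averaged 1242 CPM with BioNICD1 and 10.01 CPM with Biocontrol (6.95, adjusted p = 2.69e-12), Il2ra 482 and 0.946 CPM (8.99, adjusted p = 4.74e-10), and Prf1 128 CPM on 3896 counts and 0.118 CPM on 3 counts. Of 5 fibroblast markers, Pdgfrb was at 58.5 to 60.3 CPM with BioNICD1 in control cells and at most 0.124 CPM with Biocontrol, and the other 4 markers were at 0 counts with BioNICD1. Spi1 was at 1.77 to 2.71 CPM with BioNICD1 and at 0 counts with Biocontrol. Summed NK markers were at 2.67 to 3.1 CPM with BioNICD1 and 0.23 to 0.38 CPM with Biocontrol, with Klrb1c and Klrd1 at 0 counts in both. Their part in these results was not tested.

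In RBPJ-depleted cells, BioNICD1 moved none of the 8 genes past the threshold, against 4.14% of all genes (469). With both libraries that stood apart left out, again none of the 8 passed, and 1285 genes did. Notch1, the gene of the added domain, averaged 888 CPM with BioNICD1 and 6.18 CPM with Biocontrol in these cells, and 169 and 0.846 CPM in control cells. Tcf7 had 421, 385 and 379.7 CPM with BioNICD1, against 382, 365 and 439 CPM with Biocontrol. Tbx21 had 1.67, 4.21 and 5.08 CPM against 6.13, 4.21 and 4.46 CPM. Gata3 had 36.7, 36.9 and 46.6 CPM against 45.8, 47.5 and 39.9 CPM. These 3 genes overlapped, whereas Bcl11b, with 162, 179.9 and 169 CPM against 139, 157 and 142 CPM, and Lef1, with 121, 98.2 and 97.5 CPM against 84.9, 85.4 and 89.0 CPM, did not. Neither passed in edgeR (adjusted p = 0.159 for Bcl11b and 0.119 for Lef1), and DESeq2 called Bcl11b (adjusted p = 0.0311). Ets1 had 0, 3 and 0 counts with BioNICD1 and 0 counts in all 3 libraries with Biocontrol.

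The difference between these responses was tested as an interaction, in which a negative value means a smaller BioNICD1 response in depleted than in control cells. Of the 8 genes, 4 passed, all with negative values, against 13.3% of all genes with negative values and 22.5% in either direction. They were Tbx21 (-1.86 ± 0.412, adjusted p = 0.00741), Tcf7 (-0.72 ± 0.143, adjusted p = 0.00389), Gata3 (-0.58 ± 0.15, adjusted p = 0.0176) and Bcl11b (-0.36 ± 0.116, adjusted p = 0.0423). The Bcl11b interaction was lost in 10 of 12 fits that left out 1 library, all but those without replicate 2 of depleted BioNICD1 or replicate 3 of depleted Biocontrol, with adjusted p from 0.0305 to 0.11. With both libraries that stood apart left out, the same 4 genes passed (adjusted p = 0.0262 for Bcl11b). Their values were -1.59 for Tbx21, -0.68 for Tcf7, -0.59 for Gata3 and -0.34 for Bcl11b. Over all genes 4665 passed in that fit, against 2548 in the main fit, so the lower value for Bcl11b came with more calls in general. Lef1 (adjusted p = 0.302) and Tox (adjusted p = 0.152) did not pass, so different responses were not shown for them.

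RBPJ depletion within this experiment changed 4 of the 8 genes with Biocontrol, 2 up and 2 down, against 42% of all genes (21.7% up, 20.3% down). With BioNICD1 it changed 6 of the 8, 2 up and 4 down, against 39.8% (18.5% up, 21.4% down). The median log2 fold change of the 8 was -0.02 with Biocontrol, against 0.02 over all genes, and -0.38 with BioNICD1, against -0.0035. With both libraries that stood apart left out, Runx3 was added in both settings, and the counts were 5 and 7 of 8. The share of all genes that passed in that fit is not given here for these settings, so the counts stand without a background. Lef1 was higher in depleted cells in both, at 86.4 ± 2.22 CPM in depleted cells and 56.9 ± 4.13 CPM in control cells with Biocontrol (SD, n = 3 each; log2 fold change 0.60 ± 0.0983, adjusted p = 0.000377). With BioNICD1 it averaged 105.7 ± 13.7 CPM in depleted cells and 79.6 ± 3.47 CPM in control cells (0.41 ± 0.0966, adjusted p = 0.00511). All depleted libraries were above all control libraries in both. Tox was also higher, at 117, 113 and 142 CPM in depleted cells and 82.1, 78.8 and 82.6 CPM in control cells with Biocontrol (0.61 ± 0.109, adjusted p = 0.000761). The highest of these, at 142 CPM, was replicate 3, which stood apart, and without it and the other such library the value was 0.50 (adjusted p = 5.6e-05). With BioNICD1 the Tox rise was narrow (0.30 ± 0.108, adjusted p = 0.0428) and was lost in 9 of 12 fits that left out 1 library, all but those without depleted BioNICD1 replicate 2, depleted Biocontrol replicate 2 or depleted Biocontrol replicate 3, with adjusted p up to 0.14. The highest of its depleted libraries with BioNICD1, at 139.8 CPM, was replicate 1, which stood apart. Without both such libraries the Tox value was 0.22 (adjusted p = 0.0355) and that of Lef1 was 0.30 (adjusted p = 0.00493). With Biocontrol Lef1 was then at 0.58 and passed.

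Tcf7 and Bcl11b fell with depletion in both settings. Bcl11b averaged 146 ± 9.15 CPM in depleted cells and 216 ± 7.48 CPM in control cells with Biocontrol (-0.56 ± 0.0824, adjusted p = 0.000171), and 170.3 ± 8.92 and 324 ± 6.296 CPM with BioNICD1 (-0.93 ± 0.0825, adjusted p = 2.4e-06). Tcf7 averaged 395 ± 38.7 CPM in depleted cells and 487 ± 27.03 CPM in control cells with Biocontrol (-0.30 ± 0.101, adjusted p = 0.0303). This call was lost without control Biocontrol replicate 1 or 3 or depleted Biocontrol replicate 1 or 2, with adjusted p up to 0.133. With BioNICD1 it averaged 395 ± 22.2 and 801 ± 26.7 CPM (-1.02 ± 0.102, adjusted p = 6.68e-06). With both libraries that stood apart left out, Tcf7 and Bcl11b passed in both settings. Tcf7 was then at -0.38 and Bcl11b at -0.54 with Biocontrol, and at -1.06 and -0.89 with BioNICD1. Ets1 held 0 counts in depleted cells and 9 in control cells with Biocontrol, an exact counting interval of the ratio reaching up to 0.458. With BioNICD1 it held 3 and 367 counts, a ratio of 0.00854 (0.00175 to 0.0251).

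Gata3 and Tbx21 differed with depletion only in the presence of BioNICD1 by the test, and their interactions are given above. Gata3 averaged 40.1 ± 5.70 CPM in depleted cells and 58.6 ± 2.15 CPM in control cells with BioNICD1 (-0.55 ± 0.106, adjusted p = 0.00139), and 44.4 ± 3.99 and 43.5 ± 1.45 CPM with Biocontrol. Tbx21 averaged 3.65 ± 1.77 CPM in depleted cells and 12.8 ± 1.74 CPM in control cells with BioNICD1 (-1.79 ± 0.28, adjusted p = 0.000295), and 4.93 ± 1.04 and 4.69 ± 0.764 CPM with Biocontrol. With both libraries that stood apart left out, Tbx21 was at -1.46 and Gata3 at -0.49 with BioNICD1, and both passed. Runx1 lay between 35.6 and 50.1 CPM in all 12 libraries. Runx3 had 363, 249 and 262 CPM with BioNICD1 and 239, 209.0 and 360.3 CPM with Biocontrol in depleted cells, and its highest library in each group was the one that stood apart over all genes. Its depletion contrast with Biocontrol did not pass (adjusted p = 0.359) and passed without depleted Biocontrol replicate 3 (-0.48, adjusted p = 0.0272). With both such libraries left out, an alternative chosen after the data were seen, Runx3 was lower in depleted cells with Biocontrol (-0.50, adjusted p = 0.0003) and with BioNICD1 (-0.39, adjusted p = 0.00296).

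Of 19 T cell factors with BioNICD1, 2 were higher and 6 lower in depleted than in control cells, a share near the 39.8% of all genes that passed, with Foxo1, a quiescence factor, at 19.2 and 42.6 CPM (-1.15, adjusted p = 6.36e-05). Of 13 helper and effector factors 1 rose and 11 fell, with Maf at 21.1 and 107.8 CPM (-2.35, adjusted p = 4.66e-09). Of 12 downstream genes none rose and 10 fell, among them Prf1 on 1 count in depleted and 3896 in control cells and Ifng on 0.0397 and 7.81 CPM. With Biocontrol, 7 T cell factors rose and 3 fell, 4 helper and effector factors rose and 6 fell, and 5 downstream genes rose and 4 fell. Over all genes 42% passed with Biocontrol. The median log2 fold change of the 3 lists in this order was -0.11, -0.56 and -2.22 with BioNICD1, against -0.0035 over all genes, and 0.11, -0.33 and 0.12 with Biocontrol, against 0.02. With Biocontrol Gzmb was higher in depleted cells, at 425 CPM, against 10.01 CPM in control cells (5.41, adjusted p = 1.42e-11). Cd4 was lower there, at 0.516 CPM in depleted and 8.08 CPM in control cells (-3.94, adjusted p = 2.07e-07). In lines 2-12 and 2-14 it was higher than in the control line. Summed myeloid markers were at 9.39 to 13.3 CPM in depleted and 30.8 to 34.4 CPM in control cells with Biocontrol. With BioNICD1 they were at 10.2 to 11.9 CPM in depleted and 29.3 to 30 CPM in control cells, with 2 to 4 of the 6 above the floor in every library of a group. In the same setting, summed NK markers were at 0.1 to 0.238 CPM in depleted and 2.67 to 3.1 CPM in control cells, and Pdgfrb was at most 0.119 CPM in depleted and 58.5 to 60.3 CPM in control cells. Their part in these results was not tested.

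**Figure D5:**
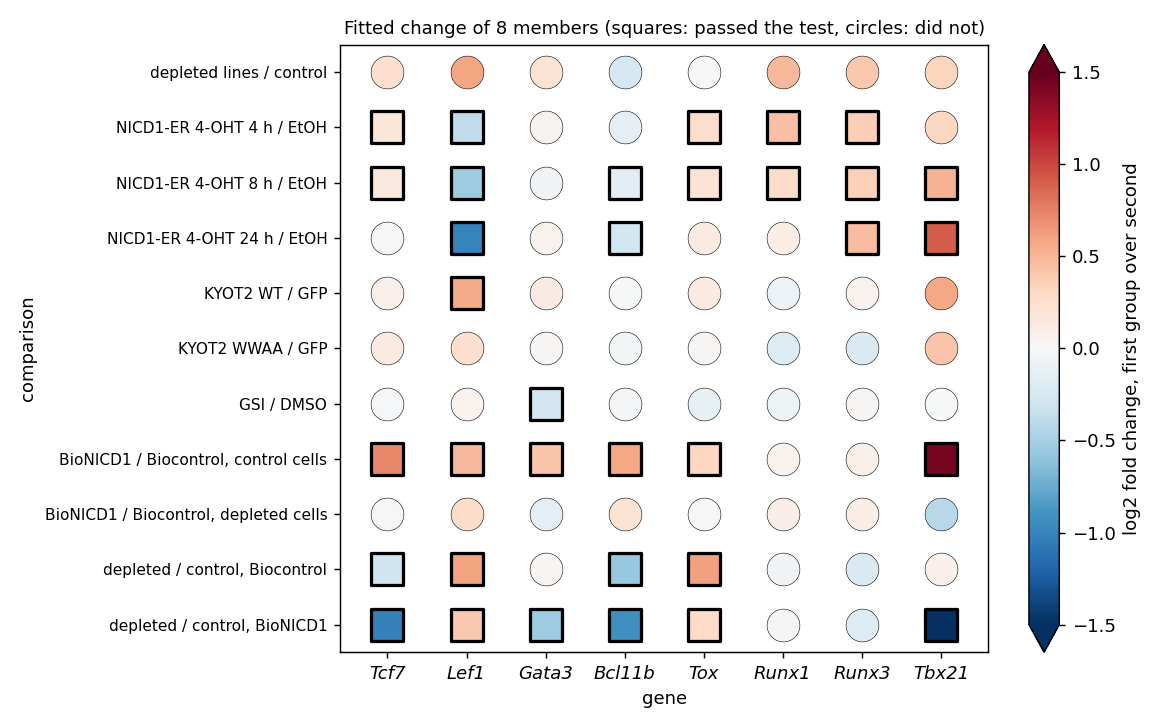
Fitted log2 fold changes (colour, first group over second, colours saturating at the ends of the scale) of 8 genes (x axis) in 11 comparisons (y axis), as squares where the adjusted p was under 0.05 and circles elsewhere. Lef1 is blue in all NICD1-ER comparisons and red in both BioNICD1-experiment depletion comparisons, and Runx1 and Runx3 have squares in NICD1-ER comparisons only.

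Across the 16 groups, with log2 CPM centred on the mean of each experiment, the 8 genes did not form 1 pattern. The description rests on points that share controls and libraries, so no test is given. Tcf7 was most like Bcl11b (r = 0.81), Tbx21 (r = 0.79) and Gata3 (r = 0.78), and Tbx21 and Gata3 had r = 0.82. Wide changes weigh most in r, and those of Tcf7 and Bcl11b were in the BioNICD1 experiment, where both rose with BioNICD1 in control cells. Elsewhere the pair could part. At 8 h in NICD1-ER cells Tcf7 was at 0.16 and Bcl11b at -0.16 on the log2 scale. In the depletion experiment Tcf7 lay above the control and Bcl11b below it. Lef1 had r between -0.18 and 0.45 with every other gene of the 8, the highest with Tox. Runx1 and Runx3 had r = 0.66. Among 10409 genes tested in all experiments, those most like Tcf7 were Degs2 (r = 0.97), Gpr132 and Parp11 (r = 0.95 each). Among those most like Lef1 were Nrip1 (r = 0.89) and Pfkfb3 (r = 0.87), and those most like Bcl11b were Ly6a (r = 0.97), Grap2 (r = 0.97) and Kcna3 (r = 0.97). For Gata3 they were Fancg, Jak3 and Fam189b (r from 0.86 to 0.88), for Tox Desi2, Kctd5 and Tnfrsf8 (r from 0.935 to 0.945), for Runx1 Fam35a, Slc26a2 and Pcyox1l (r from 0.85 to 0.86), for Runx3 Zfp128, Rdh10 and Gm614 (r from 0.89 to 0.92) and for Tbx21 Ccdc141, Bahd1 and BC017643 (r from 0.93 to 0.95).

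Eomes was not detectable at this depth: 1 count was found in 1 of 41 libraries, at 24 h of 4-OHT in NICD1-ER cells, and the floor of 3 counts allows up to 0.211 to 1.26 CPM in the others. Ets1 held at most 9 counts per sample outside the BioNICD1 experiment. In lines 2-12 and 2-14 together it held 4 counts, against 3 in the control line, and with KYOT2 WT, WWAA and GFP 6, 0 and 5 counts, too few to test. The data therefore bear on Ets1 in 1 experiment and not on Eomes.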

How the data were processed

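RNA sequencing of a mouse hybridoma T cell line was analysed in 41 libraries. The authors deposited raw counts per gene symbol as whole numbers. Per the submitters' processing notes, TopHat2 2.1.1, Picard, deepTools and the build mm9 were used, without their roles; counting tool, annotation and strand setting are not given in the sources used here. The kit named in the labels' protocols is a stranded total RNA kit "or others", and overlapping or antisense genes may share reads. Of 65 columns, 24 were not used here because their headings match no labelled sample or, for 2 of them, are shared; deposited region lists and chromatin samples were not used here.

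Counts were tested per experiment with edgeR 4.0.16 in R 4.3.3: TMM factors, filterByExpr, 1 mean per group and a two-sided quasi-likelihood F-test. P-values were adjusted over every gene tested (Benjamini-Hochberg), with a threshold of 0.05. The standard error is the log2 fold change divided by the square root of F. NICD1-ER replicates 1 and 2 at 4 h (chi-square per gene 0.907) and 8 h (0.835), over genes with at least 50 counts, were summed and counted as 1 sample; the pair at 24 h (0.928) also fell below 1, is the only pair of its group and was kept apart, so errors there may be understated. Comparisons within an experiment share samples.

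The 10 genes, the 3 further lists (24 T cell factors, 16 helper and effector factors, 20 downstream genes) and the tests were chosen with earlier results of these data known. All 10 genes are given; of each list, genes named in a comparison are among the 4 past the threshold with the widest change there, except Foxp3. Alternatives were RLE factors, no low-count filter, DESeq2 1.42.0, leaving out each sample, fitting only the groups compared and a replicate block; the comparison of 24 h with 4 h and its alternatives were added after the data were seen. Leaving out both libraries of the BioNICD1 experiment that stood apart was also added then. In the depletion experiment residuals of libraries with the same replicate number correlated at 0.433 to 0.608 in all 6 pairs. With 2 libraries per group, there and in GSI, residuals of replicates 1 and 2 mirror each other, so these pairs are not independent. The pairing comes from the data and not from the labels, and blocked calls are given for the depletion experiment. Some genes of the 3 lists, among them Irf8, Il2ra and Prf1, lay under the floor in 1 group of a comparison. They stay in the list counts and medians, where their changes are descriptions. Scripts were tested on simulated data. Promoters are RefSeq's, on GRCm38.p6, a build other than that of the counts, and were used for sequence only. Of the genes of like pattern, the 3 with the highest r per gene, 1 is not reported here.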

Additional observations from a re-analysis of the deposited data

Results flagged for a closer look

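Responses to BioNICD1 that differed between RBPJ-depleted and control cells by the interaction test were -1.86 for Tbx21, -0.717 for Tcf7, -0.577 for Gata3 and -0.363 for Bcl11b, on the log2 scale. Responses to 4-OHT that differed between 24 h and 4 h by the test of that difference were -0.62 for Lef1, -0.34 for Runx1, -0.175 for Tcf7, -0.144 for Bcl11b and 0.586 for Tbx21.

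In other cases every sample moved one way in 1 experiment and the opposite way in another, and the difference was not tested. Depletion of RBPJ gave Tcf7 a log2 fold change of 0.248 in lines 2-12 and 2-14, which did not pass the test, and of -0.302 in the BioNICD1 experiment with Biocontrol. In NICD1-ER cells given 4-OHT for 24 h Lef1 was at -1, and it was at 0.486 with BioNICD1 in control cells. Bcl11b was at -0.287 in the same NICD1-ER comparison and at 0.583 with BioNICD1 in control cells.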

How the results depend on the processing

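Of 141 tests of a single gene among the 10 in a comparison, 46 passed the main test, and 30 of these passed under every alternative other than leaving out a sample and 29 under every alternative. Of 83 that passed nowhere, 34 changed sign under some alternative, so no direction is read from them; none that passed did. Counts in the BioNICD1 experiment include Ets1 here, with 5 tests, of which 1 passed upward and 2 downward. Ets1 passed the low-count filter through 1 group alone. Its calls were kept under every alternative, and they describe counts only. The number of the genes called moved by more than 1.5 times as follows, and the cause was not tested. Without the low-count filter it was 2 over both depleted lines (0 in the main fit), 1 for line 2-12 (0), 1 for line 2-14 (0) and 1 for KYOT2 WT against WWAA (0). With DESeq2 it was 1 for line 2-12 (0), 2 for NICD1-ER at 4 h (5), 2 at 8 h (7), 2 for 24 h against 4 h (5), 0 for DAPT (1) and 1 for BioNICD1 in depleted cells (0). With the replicate block it was 2 over both lines (Tcf7 and Runx1), 2 for line 2-12 (the same 2 genes), 1 for line 2-14 (Tbx21) and 1 for KYOT2 WT against WWAA (Runx3). Replicate numbers pair nothing in the labels; outside the depletion experiment, residuals of libraries with the same number correlated at 0.0349 to 0.408 in KYOT2 (8 of 9 libraries closest to their own number), -0.0112 to 0.169 in NICD1-ER, 0.0268 in GSI and -0.449 to 0.549 in BioNICD1. Leaving out 1 sample gave 0 to 1 over both lines and for line 2-12, 3 to 7 for NICD1-ER at 8 h, 3 to 5 for 24 h against 4 h and 0 to 1 for KYOT2 WT against GFP; where a group kept 1 sample, it was assumed to vary like the other groups. Counts over all genes moved likewise. Without the filter they were 2671 over both lines (1144 in the main fit), 2126 for line 2-12 (805), 1870 for line 2-14 (584), 302 between the lines (56), and 262, 66 and 395 for KYOT2 WT against GFP (99), WWAA against GFP (10) and WT against WWAA (208). With the block they were 4260, 3672, 3243 and 282 in the depletion experiment, 320, 67 and 567 in KYOT2, and 1223 for NICD1-ER at 4 h (738) with each library as its own sample. DESeq2 gave 212 at 4 h, 409 at 8 h (1225), 588 at 24 h (1276), 432 for 24 h against 4 h (1584), 605 for DAPT (2414), 109 between the lines, 22 for WWAA against GFP and 750 for BioNICD1 in depleted cells (469). Fitting only the groups compared gave 486 for line 2-12, 161, 6 and 112 in KYOT2, 5847 for BioNICD1 in control cells (3723) and 4 in depleted cells. Leaving out both libraries that stood apart gave 5882 for BioNICD1 in control cells, 1285 in depleted cells and 4665 for the interaction (2548). Depth limits Eomes, Ets1 and, at 1.67 to 31.4 CPM, Tbx21.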
